A study of Mus musculus with 6 samples.

Results

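Fanconi anaemia and homologous recombination genes were followed in mouse kidney proximal tubules exposed to aristolochic acid I. They are the 36 genes of a list drawn up by symbol, with earlier results of these data known. The list holds the Fanconi core complex and its partners and the nucleases that cut at a crosslink. It also holds the proteins that repair the resulting break by homologous recombination. Each of the 36 symbols was found once among the 32544 genes of the table, and 31 of them were read often enough to be tested. RNA was sequenced from combined S2 and S3 segments, where the proximal tubule straightens on its way to the medulla, dissected by hand from kidneys of C57Bl/6 mice that the design text calls control mice. The 3 libraries called AA came from mice given aristolochic acid I, a plant nephrotoxin that forms bulky DNA adducts after its reduction in cells. The 3 libraries called DMSO came from mice given the solvent dimethyl sulfoxide. Both groups were collected after 24 h and share the stated dose of 3 mg/kg, the strain, the segments and the pooling of several tubules per kidney. The labels do not give the age or sex of the mice, nor whether each library is a different animal.

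An interstrand crosslink ties both strands of DNA together and stops a replication fork. The FANCM anchor recruits the Fanconi core complex, whose FANCL subunit, with the ubiquitin-conjugating enzyme UBE2T, attaches ubiquitin to the FANCI-FANCD2 clamp. The marked clamp brings in nucleases that unhook the crosslink, and homologous recombination, which needs BRCA2, then mends the resected break with the sister chromatid as a template. Most of these steps take place in S and G2 phase, and most cells of a healthy proximal tubule are not dividing.

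Of the 31 tested genes, 2 were higher in AA and 0 were lower at an adjusted p under 0.05 in the limma fit over 14311 genes. They were Mus81, which encodes a structure-selective endonuclease, and Faap24, which encodes the partner of FANCM in the anchor complex. Over all tested genes 22.3% were called higher and 8.66% lower, so the 2 genes are fewer than a like share of 31 genes would give. At an unadjusted p under 0.05 there were 3 genes, the 2 above and Fancl, which was lower. Voom on recovered reads called Mus81 higher and 0 genes lower. TMM factors, equal library medians and quantile normalization each called 1 gene higher, and 2, 3 and 7 genes lower. The shares of all genes were then 13.2%, 11.2% and 12.7% higher, and 14.7%, 16.9% and 14.5% lower. On the deposited scale the median log2 fold change of the 31 genes was -0.01, with 15 values above 0 and 16 below. The median over all tested genes was 0.21, and 23 of the 31 genes lay below it. Single log2 fold changes ran from -0.64 for Fancl to 0.94 for Mus81. None of the 31 genes moved past a log2 fold change of 1 in either direction, against 12.4% of all tested genes.

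Every AA value lay above every DMSO value in 2 of the 31 genes, Mus81 and Faap24, against 33.4% of all genes compared. Every AA value lay below every DMSO value in 3 genes, Fancc, Fanci and Brip1, against 13.0% of all genes. The other 26 genes overlapped between the groups. The summed level of the 36 genes was 303, 390 and 421 reads per 1000000 counted reads (CPM) in DMSO replicates 1 to 3, and 358, 380 and 432 CPM in AA replicates 1 to 3. The summed levels of the groups overlapped. In these bulk libraries, fewer cells of a type and less RNA per cell cannot be told apart.

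**Figure D1:**
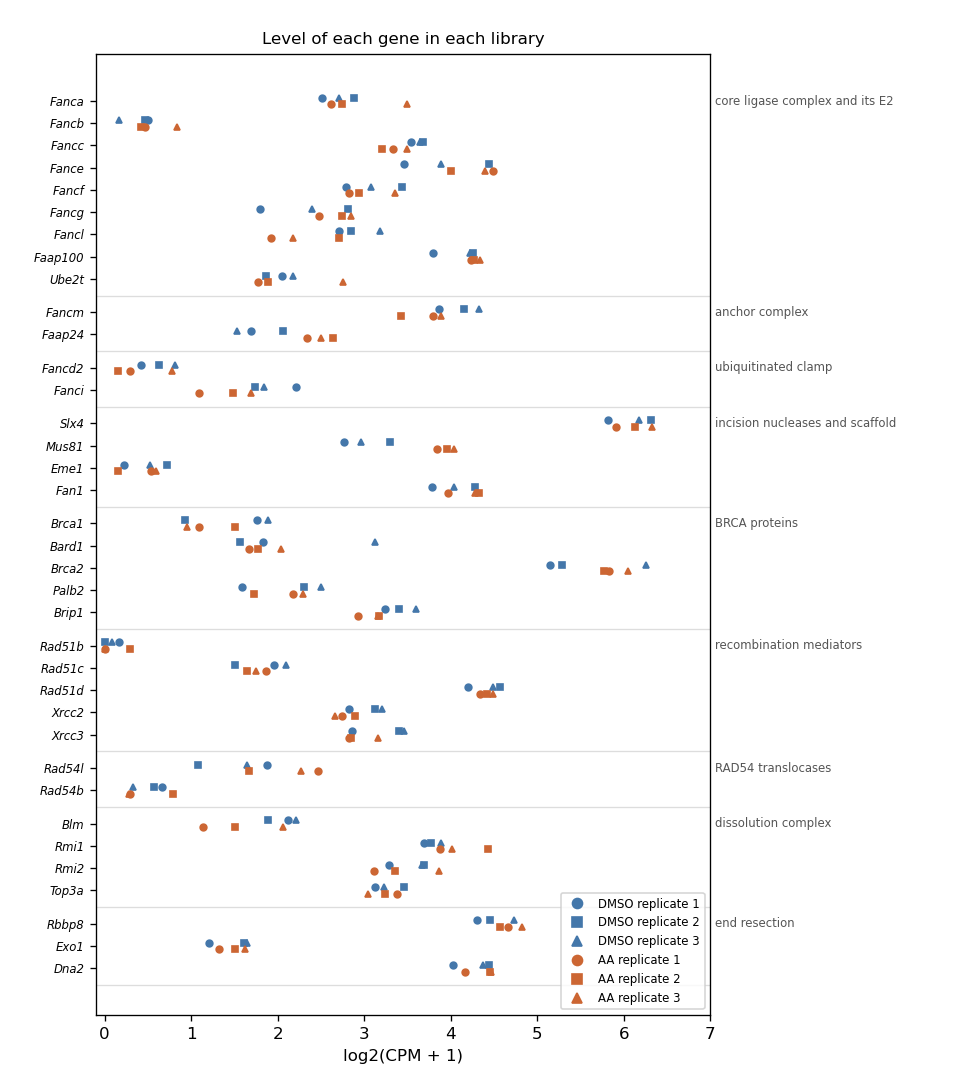
Level of each of the 36 genes in each of the 6 libraries, as log2(CPM + 1) on the horizontal axis, with DMSO in blue and AA in orange and genes grouped by role. The AA points of Mus81 lie between 13.3 and 15.4 CPM and those of DMSO between 5.78 and 8.83 CPM, while the points of most other genes interleave.

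Mus81 cuts branched DNA such as stalled forks and joint molecules, with Eme1 or Eme2 as its partner. Its gene lies on the minus strand at chr19:5482345-5488402 (mm10). It was read at 5.78, 8.83 and 6.77 CPM in DMSO replicates 1 to 3, from 108 to 275 reads per library. In AA replicates 1 to 3 it was read at 13.3, 14.5 and 15.4 CPM, from 177 to 259 reads. The groups did not overlap, and the AA values lay closer together than the DMSO values. The means were 7.12 ± 1.56 CPM in DMSO and 14.4 ± 1.04 CPM in AA (SD, n = 3 each), a ratio of 2.02. On the log2 scale AA exceeded DMSO by 0.94 (SE 0.22, limma adjusted p = 0.00839). With a term for library sets, which leaves DMSO replicate 3 as the control, the change was 0.99 and did not pass (adjusted p = 0.0719). Relative to the median of the tested genes of the list within the same library, Mus81 stood at -0.06, -0.10 and -0.25 log2 units in DMSO and at 1.01, 1.02 and 0.88 in AA. Measured against Slx4, the scaffold that holds it, it stood at -3.06, -3.01 and -3.21 log2 units in DMSO and at -2.07, -2.17 and -2.30 in AA. Differences within a library hardly depend on how whole libraries are scaled, and in both the groups were apart. They were chosen after the values had been seen.

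Faap24 binds branched DNA together with Fancm and helps to bring the core complex to chromatin. Its gene lies on the minus strand at chr7:35392152-35396836 (mm10). It was read at 2.22, 3.18 and 1.88 CPM in DMSO and at 4.06, 5.22 and 4.67 CPM in AA, from 30 to 99 reads per library. All 3 AA values lay above the highest DMSO value. The means were 2.43 ± 0.674 CPM in DMSO and 4.65 ± 0.581 CPM in AA (SD, n = 3 each), a ratio of 1.92. On the log2 scale this was 0.73 (SE 0.25), with a limma adjusted p of 0.0482, just inside the threshold. Faap24 was not called under any of 3 other scalings (adjusted p from 0.102 to 0.242), nor after leaving out any library but DMSO replicate 2 (0.068 to 0.157; 0.039 without that replicate).

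The upstream sequences of these genes are shown because they are the ones whose level rose. They come from RefSeq (GRCm38.p6, the same assembly as mm10), are written 5′ to 3′ along the gene, and are trimmed to bases outside annotated exons. Capitals mark matches on either strand to the CCAAT box and to the cell-cycle element CHR, searched as TTTGAA or TTCGAA. The stretch for Mus81 covers chr19:5488403-5488629 on the minus strand, and that for Faap24 covers chr7:35396837-35397017 on the minus strand.
Mus81: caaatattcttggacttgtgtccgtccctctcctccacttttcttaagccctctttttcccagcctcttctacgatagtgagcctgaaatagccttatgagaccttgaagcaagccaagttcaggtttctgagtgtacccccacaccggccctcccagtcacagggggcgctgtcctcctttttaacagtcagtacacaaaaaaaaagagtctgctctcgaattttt
Faap24: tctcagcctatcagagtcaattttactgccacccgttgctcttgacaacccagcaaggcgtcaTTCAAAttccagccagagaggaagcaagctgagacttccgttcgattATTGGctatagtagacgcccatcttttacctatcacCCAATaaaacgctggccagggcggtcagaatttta
The Mus81 stretch of 227 bases holds neither element, nor an E2F element in either form searched. The Faap24 stretch of 181 bases holds a CHR match and CCAAT matches on both strands.

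Both genes that rose share exonic bases at their 3′ ends with a gene on the opposite strand, and the labels do not say whether the authors' counting used strand. Mus81 shares 173 bases, 4.85% of its exonic length, with Efemp2, which encodes an extracellular matrix protein. Efemp2 was read at 2.34, 2.51 and 3.07 CPM in DMSO and at 4.89, 8.36 and 5.10 CPM in AA, with a log2 change of 0.94 ± 0.26 (SE, limma adjusted p = 0.0213). Faap24 shares 138 bases, 7.02% of its exonic length, with Rhpn2. Rhpn2 was read at 4.48, 5.07 and 3.70 CPM in DMSO and at 5.86, 9.04 and 7.11 CPM in AA, with a log2 change of 0.61 ± 0.24 (SE, limma adjusted p = 0.0767). Neither neighbour's groups overlapped. How many reads of each pair fell in the shared bases was not tested. Over the list, 19 of the 36 genes share exonic bases with another annotated gene, and 12 of them with a protein-coding gene on the opposite strand.

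**Figure D2:**
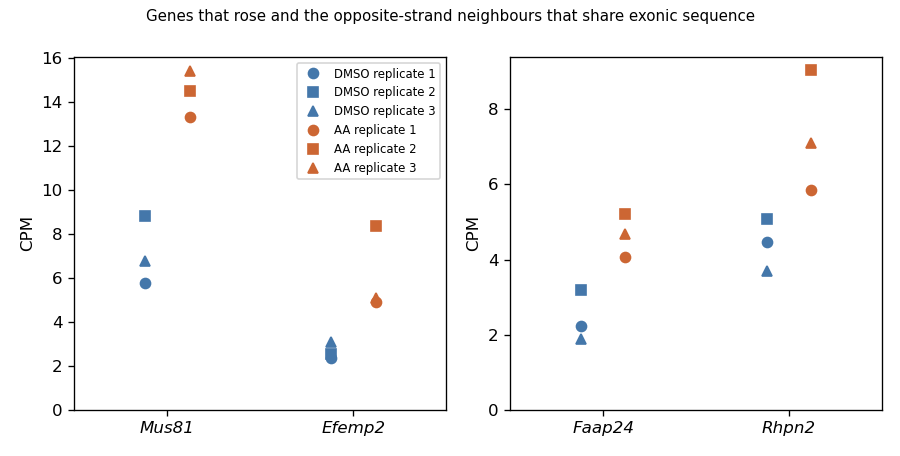
CPM of Mus81 and Efemp2 on the left and of Faap24 and Rhpn2 on the right, 1 point per library with DMSO in blue and AA in orange and both vertical axes starting at 0. In each of the 4 genes the 3 AA points lie above the 3 DMSO points.

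The core complex, the ubiquitin ligase of the pathway, is represented by Fanca, Fancb, Fancc, Fance, Fancf, Fancg, Fancl and Faap100, here taken with the enzyme Ube2t. Of these 9 genes, 8 were tested and 0 passed; 1 of them, Fancl, had an unadjusted p under 0.05. Their median log2 fold change was 0.15, with 5 values above 0 and 3 below. Faap100, a scaffold of the ligase module, was read at 12.9, 18.1 and 17.7 CPM in DMSO and at 17.8, 18.3 and 19.2 CPM in AA. The groups overlapped, and the log2 fold change was 0.19 (SE 0.19, limma adjusted p = 0.477), falling to between -0.02 and -0.08 under 3 other scalings. Fance, which joins the core complex to Fancd2, was read at 10, 20.7 and 13.8 CPM in DMSO and at 21.4, 15 and 20 CPM in AA. Its DMSO values alone covered a range of about the same width as the whole data, and the log2 fold change was 0.37 (SE 0.25, adjusted p = 0.294).

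Fancc, a subunit that pairs with Fance, was read at 10.6, 11.8 and 11.5 CPM in DMSO and at 9.09, 8.25 and 10.3 CPM in AA. The 3 AA values lay below the 3 DMSO values by a narrow margin. The means were 11.3 ± 0.634 and 9.20 ± 1.01 CPM (SD, n = 3 each). The log2 fold change of -0.27 (SE 0.20) did not pass, with a limma adjusted p of 0.318. Of the 3 other scalings, only quantile normalization called Fancc lower (-0.58, adjusted p = 0.0426). Fancl, the catalytic subunit that transfers ubiquitin, was picked out after its values had been seen, as the gene with the lowest log2 fold change. It was read at 5.52, 6.20 and 8.08 CPM in DMSO and at 2.78, 5.56 and 3.52 CPM in AA. AA replicate 2 reached the DMSO range and the other 2 AA libraries lay below it. On the log2 scale the change was -0.64 (SE 0.27, limma adjusted p = 0.0944). Under 3 other scalings it was called lower, at -0.82 to -0.99 (adjusted p from 0.0139 to 0.0335). Fancl shares 462 exonic bases, 13.7% of its exons, with the opposite-strand kinase gene Vrk2, whose log2 fold change was -0.46 (adjusted p = 0.169).

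None of the remaining genes of the core group passed. Fanca, the subunit most often altered in patients with Fanconi anaemia, had a log2 fold change of 0.25 (SE 0.28), with 10.3 CPM in AA replicate 3 and 4.69 to 6.39 CPM in the other 5 libraries. Without AA replicate 3 its value was -0.02. Fancg, a partner of Fanca, was read at 2.47 to 6.01 CPM in DMSO and 4.58 to 6.18 CPM in AA and stood at 0.35 (SE 0.29). Fancf, an adaptor within the complex, stood at -0.06 (SE 0.25), and Ube2t, at 2.41 to 5.74 CPM, stood at 0.11 (SE 0.30). Ube2t also had its highest value in AA replicate 3, and without that library it stood at -0.20. Fancb, the partner of Faap100 and an X-linked gene, was too low to test, with 2 to 12 reads in each library.

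The anchor complex comprised Fancm, a helicase-like translocase, and Faap24. Fancm was read at 13.5, 16.8 and 19 CPM in DMSO and at 12.9, 9.77 and 13.8 CPM in AA. The groups overlapped at DMSO replicate 1. Its log2 fold change of -0.41 (SE 0.21) did not pass, with a limma adjusted p of 0.162. Under 3 other scalings Fancm was called lower, at -0.61 to -0.69 (adjusted p from 0.0314 to 0.044). The partners thus differed in sign: Faap24 minus Fancm was -2.17, -2.09 and -2.80 log2 units in DMSO and -1.46, -0.79 and -1.38 in AA. The groups did not overlap in this difference, which was chosen after the values had been seen.

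The clamp that receives ubiquitin is made of Fanci and Fancd2. Fanci was read at 3.64, 2.34 and 2.57 CPM in DMSO and at 1.13, 1.80 and 2.23 CPM in AA. The groups were separated by a small gap, between AA replicate 3 and DMSO replicate 2. Its log2 fold change was -0.51 (SE 0.28, limma adjusted p = 0.18). Of the 3 other scalings, only quantile normalization called Fanci lower (-0.85, adjusted p = 0.0413). Fanci shares 921 exonic bases, 16.0% of its exons, with the opposite-strand gene Polg, read at means of 52.8 CPM in DMSO and 66.2 CPM in AA. The part of Polg reads in the Fanci values was not tested. Fancd2 was close to the lower limit of reading, with 8, 17 and 12 reads in DMSO and 3, 2 and 10 reads in AA, and was not tested. A count of 0 would allow up to 3 reads, or 0.0964 to 0.225 CPM depending on the library, by counting error alone. Its opposite-strand neighbour Fancd2os, which shares 257 exonic bases with it, was read at 6.53, 4.98 and 4.39 CPM in DMSO and at 1.13, 1.12 and 0.79 CPM in AA. Fancd2os fell by 1.64 on the log2 scale (SE 0.26, limma adjusted p = 0.00119). The part of its reads in the low Fancd2 values was not tested.

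Among the genes that unhook the crosslink, Slx4 is the scaffold for several nucleases and Fan1 is a nuclease that binds the ubiquitinated clamp. Slx4 was read at 55.4, 78.4 and 71.1 CPM in DMSO and at 59.0, 68.8 and 79.4 CPM in AA. The groups overlapped fully, with a log2 change of 0.02 ± 0.17 (SE, limma adjusted p = 0.943) that turned to between -0.13 and -0.24 under 3 other scalings. Per kilobase of exon Slx4 had the highest level of the 36 genes, at 8.97 CPM per kb over all libraries, against 3.02 for Mus81. Fan1 was read at 12.8, 18.5 and 15.4 CPM in DMSO and at 14.6, 19 and 18.4 CPM in AA, with a log2 change of 0.15 ± 0.20 (SE, adjusted p = 0.598) and values of -0.05 to -0.12 under 3 other scalings. Eme1, the partner of Mus81, stayed at 0.167 to 0.642 CPM in DMSO and 0.112 to 0.503 CPM in AA, from 2 to 20 reads, and was not tested. Eme2, the other partner and not a gene of the list, was read at 26.3, 41.6 and 34.2 CPM in DMSO and at 33.5, 38.8 and 44.7 CPM in AA, with overlapping groups and a log2 change of 0.21 ± 0.19 (SE, adjusted p = 0.434).

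The BRCA proteins prepare a resected end for strand exchange: Brca2 is the central mediator, Palb2 links it to Brca1, Bard1 is the ligase partner of Brca1 and Brip1 is a helicase that binds Brca1. All 5 were tested and 0 passed, and none had an unadjusted p under 0.05. The median log2 fold change was -0.33, with 1 value above 0 and 4 below. Brca2 was read at 34.5, 37.9 and 75.3 CPM in DMSO and at 56.0, 53.8 and 65.4 CPM in AA. DMSO replicate 3 was the highest of the 6 libraries and the other 2 DMSO libraries were the lowest. The log2 fold change was 0.33 (SE 0.25, limma adjusted p = 0.343). Against DMSO replicate 3 alone it was -0.37. Leaving that replicate out gave 0.67 and an adjusted p of 0.0135, so the call of Brca2 depended on 1 control library.

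Bard1 was described for the same reason, after its values had been seen. It was read at 2.55, 1.96 and 7.71 CPM in DMSO and at 2.18, 2.41 and 3.09 CPM in AA. DMSO replicate 3 again stood far above the other 5 libraries. The coefficient of variation within DMSO was 77.6% for Bard1 and 45.9% for Brca2, against 17.2% for Slx4 and 36.3% for Fance. The log2 fold change of Bard1 was -0.35 (SE 0.38, limma adjusted p = 0.507), -1.3 set against DMSO replicate 3 by itself, and 0.13 when that replicate was left out.

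Brip1 was read at 8.45, 9.57 and 11.1 CPM in DMSO and at 6.61, 8.03 and 7.90 CPM in AA. The 3 AA values lay below the 3 DMSO values. The means were 9.71 ± 1.32 and 7.51 ± 0.781 CPM (SD, n = 3 each). The log2 fold change of -0.33 (SE 0.21) did not pass, with a limma adjusted p of 0.261. Equal library medians and quantile normalization called Brip1 lower, at -0.59 and -0.64 (adjusted p = 0.0419 and 0.0298), and TMM factors did not. Brca1 stood at -0.34 (SE 0.32) and Palb2 at -0.07 (SE 0.30), both with overlapping groups and levels under 5 CPM in each library.

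The upstream stretches of Bard1 and Brip1 are printed because they hold matches to the searched elements close together in a short window. CCAAT, the only element marked for Brip1, is common and was found in 38.3% of promoters of tested genes. These stretches come from the same RefSeq table, at chr1:71103147-71103222 and chr11:86201194-86201369, both on the minus strand. Capitals mark matches to the E2F element TTTCCCGC, to CHR and to the CCAAT box on either strand.
Bard1: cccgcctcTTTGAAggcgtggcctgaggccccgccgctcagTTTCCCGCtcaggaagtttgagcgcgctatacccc
Brip1: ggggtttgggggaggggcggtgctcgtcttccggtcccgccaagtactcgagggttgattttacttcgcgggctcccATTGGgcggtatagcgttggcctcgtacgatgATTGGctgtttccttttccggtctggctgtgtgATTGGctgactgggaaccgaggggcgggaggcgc
Bard1 holds a CHR match and an E2F match within 76 bases, and Brip1 holds 3 CCAAT matches within 176 bases. Repeated CCAAT matches were also found in other promoters of the list, such as those of Fancf, Ube2t and Xrcc3.

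Promoters were found in the RefSeq table for 28 of the 36 genes and were searched over 300 bases, from 250 before to 50 after the annotated start. The E2F element in its C form, TTTCCCGC, was found in 3 of the 28, Bard1, Brca2 and Fancg. That is 10.7%, against 1.91% of promoters of tested genes and 1.11% of all 27025 promoters. The G form, TTTGGCGC, was found in 0 of the 28, against 0.97% and 0.537%. CCAAT was found in 17 of the 28, or 60.7%, against 38.3% and 37.9%. CHR was found in 3, Bard1, Eme1 and Faap24, which is 10.7% against 13.7% and 19.4%. A p53 half-site was matched in Brip1, Fanca and Fancg, which is 10.7% against 7.14% and 8.37%. The 3 genes with the E2F match had log2 fold changes of -0.35, 0.33 and 0.35, none of which passed. A match describes letters in a window and is not a measured binding site.

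The further recombination mediators, which act beside Brca2 in strand exchange, were Rad51b, Rad51c, Rad51d, Xrcc2 and Xrcc3. Of these 5 genes 4 were tested, 0 passed and none had an unadjusted p under 0.05. Their log2 fold changes lay between -0.30 and -0.01, with a median of -0.19. Rad51d was read at 17.4, 22.7 and 21.4 CPM in DMSO and at 19.2, 20.3 and 21.5 CPM in AA. The AA values lay inside the DMSO range, with a log2 change of -0.01 ± 0.18 (SE, limma adjusted p = 0.986). Xrcc3 was read at 6.24, 9.60 and 9.96 CPM in DMSO and at 6.09, 6.17 and 7.90 CPM in AA, with a log2 change of -0.30 ± 0.24 (SE, adjusted p = 0.371). DMSO replicate 1 lay with the AA libraries. Xrcc2, read at 6.07 to 8.21 CPM in DMSO and 5.31 to 6.40 CPM in AA, stood at -0.28 (SE 0.22). Of the 3 other scalings, only quantile normalization called it lower (-0.63, limma adjusted p = 0.0427). Rad51c, read at 1.83 to 3.26 CPM, stood at -0.10 (SE 0.26). Rad51b was at the limit of reading, with 3, 0 and 1 reads in DMSO and 0, 4 and 0 reads in AA.

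Rad54l and Rad54b encode translocases that act on DNA during strand exchange. Rad54l was read at 2.68, 1.12 and 2.13 CPM in DMSO and at 4.51, 2.19 and 3.81 CPM in AA. AA replicate 2 lay inside the DMSO range and the other 2 AA libraries lay above it. The log2 fold change was 0.60 (SE 0.31, limma adjusted p = 0.164). Rad54l shares 1184 exonic bases, 15.4% of its exons, with the opposite-strand gene Lrrc41, which rose by 0.63 on the log2 scale (SE 0.14, adjusted p = 0.00706). The part of Lrrc41 reads in the Rad54l values was not tested. Rad54b had 14, 15 and 4 reads in DMSO and 3, 13 and 3 reads in AA and was not tested.

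The dissolution complex, which separates joined molecules without a crossover, was measured as Blm, Rmi1, Rmi2 and Top3a. All 4 were tested, 0 passed and none had an unadjusted p under 0.05. The median log2 fold change was -0.07. Rmi1, a scaffold of the complex, was read at 11.9, 12.7 and 13.8 CPM in DMSO and at 13.7, 20.6 and 15.2 CPM in AA. The groups touched at DMSO replicate 3, and the log2 fold change was 0.33 (SE 0.20, limma adjusted p = 0.243). Rmi1 shares 330 exonic bases, 5.02% of its exons, with the opposite-strand gene Hnrnpk. Hnrnpk was read at means of 259 CPM in DMSO and 326 CPM in AA. The part of Hnrnpk reads in the Rmi1 values was not tested. Rmi2, the partner of Rmi1, was read at 8.75, 11.9 and 11.7 CPM in DMSO and at 7.67, 9.26 and 13.5 CPM in AA, with a log2 change of -0.10 ± 0.24 (SE, adjusted p = 0.779). The AA values of Rmi2 spread beyond the DMSO range on both sides. The helicase Blm was read at 3.35, 2.70 and 3.63 CPM in DMSO and at 1.20, 1.85 and 3.16 CPM in AA. It stood at -0.50 (SE 0.29), with AA replicate 3 inside the DMSO range. Of the 3 other scalings, only quantile normalization called Blm lower (-0.84, limma adjusted p = 0.0405). The topoisomerase Top3a, read at 7.25 to 9.96 CPM, stood at -0.05 (SE 0.21).

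End resection exposes the single strand that later searches for its template. Rbbp8, which encodes the starting factor CtIP, was read at 18.7, 20.9 and 25.6 CPM in DMSO and at 24.4, 22.7 and 27.4 CPM in AA. The groups overlapped, and the log2 fold change was 0.19 (SE 0.18, limma adjusted p = 0.438), with values of -0.02 to -0.07 under 3 other scalings. Dna2, a nuclease and helicase of long-range resection, was read at 15.3, 20.7 and 19.7 CPM in DMSO and at 17.0, 20.9 and 21.1 CPM in AA. Its log2 fold change was 0.09 (SE 0.19, adjusted p = 0.76), with values of -0.12 to -0.17 under 3 other scalings. The exonuclease Exo1 stood at 0.00 (SE 0.26), at 1.3 to 2.13 CPM. None of the 3 resection genes passed or had an unadjusted p under 0.05.

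**Figure D3:**
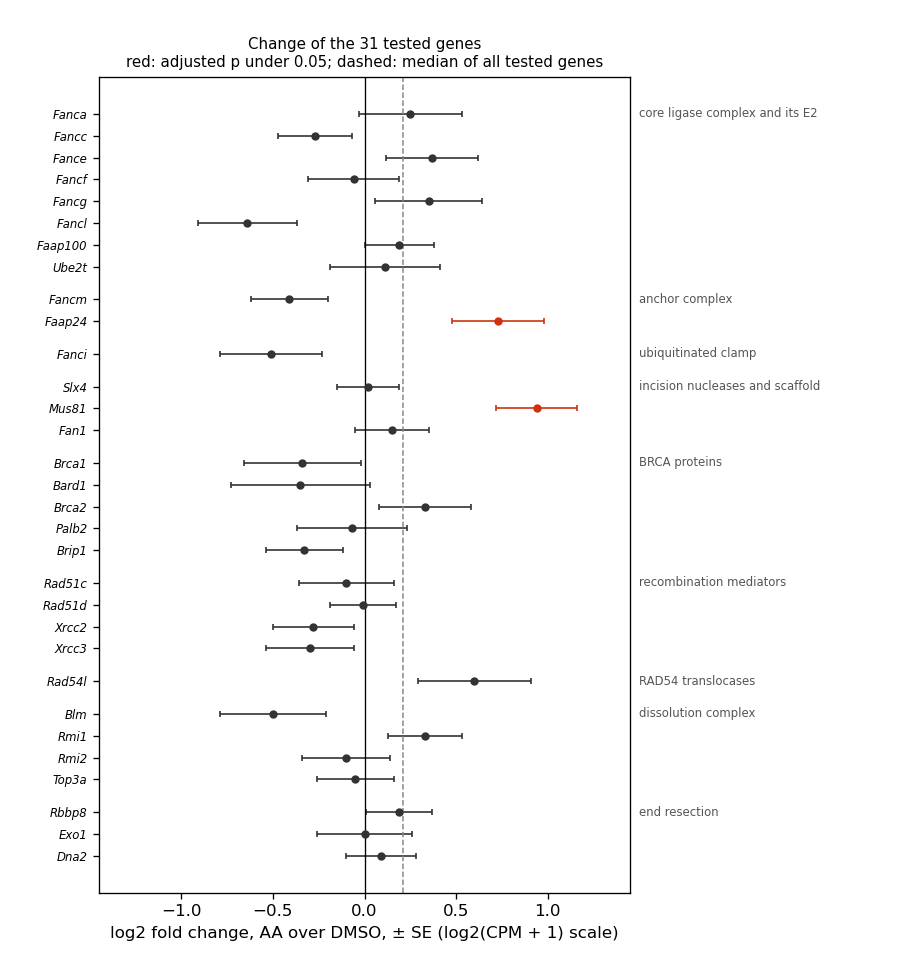
Log2 fold change of AA over DMSO with its SE for the 31 tested genes, grouped by role; red marks an adjusted p under 0.05 and the dashed line is the median of all tested genes, 0.21. Mus81 at 0.94 and Faap24 at 0.73 are the 2 red points, and 23 of the 31 points lie left of the dashed line.

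Per kilobase of exon, levels in these tubules were uneven among partners. After Slx4 at 8.97 CPM per kb followed Rad51d at 5.50, Fance at 5.27, Fancf at 4.46 and Brca2 at 3.94, as means over the 6 libraries. In AA alone Fance, at 5.90, stood above Rad51d, at 5.47, and Mus81 went from 2.00 in DMSO to 4.04 in AA. The 5 lowest were Eme1 at 0.14, Fancb at 0.136, Rad54b at 0.0717, Fancd2 at 0.0565 and Rad51b at 0.0183 CPM per kb. Fancd2, a subunit of the clamp at the centre of the pathway, thus ranked 35 of 36. In CPM not divided by length, Slx4 and Brca2 together held 29.7% to 34.7% of the summed level of the 36 genes in each library.

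Genes of the same processes outside the list were counted alongside. Of 44 other crosslink repair and recombination genes, 41 were tested, 5 rose, 2 fell, and the median log2 fold change was 0.10. Over all tested genes the shares were 22.3% and 8.66% and the median 0.21, so this group did not hold more calls than its size would give. Sfr1, a recombination cofactor, rose from 22.1, 21.8 and 22.6 CPM to 35.1, 36.6 and 36.2 CPM, a log2 change of 0.67 ± 0.15 (SE, limma adjusted p = 0.00646). Usp1, which removes ubiquitin from the clamp, rose from 30.5, 20.2 and 37.2 CPM to 49.2, 45.5 and 41.5 CPM, a log2 change of 0.65 ± 0.21 (SE, adjusted p = 0.0349). The ubiquitin ligase gene Rfwd3, from 51.9, 39.6 and 41.6 CPM to 56.4, 71.6 and 65.3 CPM, rose by 0.53 (SE 0.16, adjusted p = 0.0266). In each of these 3 genes the groups did not overlap. Of the 41 genes, 10 had every AA value above every DMSO value and 7 had every AA value below. The shares of all genes compared were 33.4% and 13.0%.

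Of 5 genes of the BRCA1-A complex, which trims ubiquitin chains at breaks, 1 rose, 1 fell and 3 (Uimc1, Babam1 and Abraxas1) did not pass. Brcc3, its deubiquitinase, rose from 40.1, 28.1 and 39.5 CPM to 47.8, 53.5 and 56.9 CPM, a log2 change of 0.56 ± 0.17 (SE, limma adjusted p = 0.0299). That call was lost with equal medians (0.30, adjusted p = 0.248). The library-set term, which leaves DMSO replicate 3 as the control, also ended the Brcc3 call. It likewise ended the calls of Sfr1, Usp1, Rfwd3, Spidr and Faap20, and kept that of Babam2. Babam2, listed under its older symbol Bre and a scaffold of the same complex, fell from 30.3, 30.4 and 34.3 CPM to 12.6, 19 and 14.6 CPM, a log2 change of -1.01 ± 0.19 (SE, adjusted p = 0.00281). Spidr, a scaffold that binds BLM, fell from 6.57, 6.07 and 7.71 CPM to 3.23, 4.38 and 2.73 CPM, by 0.82 on the log2 scale (SE 0.24, adjusted p = 0.0268). Faap20, a core complex subunit outside the naming rule and named after its values were seen, stood at 0.51 (SE 0.18, adjusted p = 0.0459). With library medians made equal, 0 of the 41 genes were called higher and 7 lower, where over all genes the shares also turned, to 11.2% higher and 16.9% lower.

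Regulators and markers of the cell cycle were counted against the same shares of all genes, 22.3% higher and 8.66% lower. Of 20 genes of the E2F, RB and DREAM group, 19 were tested, with 1 higher, 0 lower and a median of -0.02. The 1 called gene was the repressor E2f6, which rose from 13.6, 15 and 17.3 CPM to 21.6, 26.8 and 23.9 CPM, a log2 change of 0.62 ± 0.18 (SE, limma adjusted p = 0.023). Of 15 proliferation markers 9 were tested, with 1 higher, 0 lower and a median of 0.23. Cdc20, an activator of the anaphase-promoting complex, was that gene, with a log2 change of 0.94 ± 0.33 (SE, adjusted p = 0.0494) at levels under 4 CPM. At an unadjusted p under 0.05 there were 2 genes in each of these groups, all higher, and the higher calls of both groups were lost under 3 other scalings, where the E2F group had 1, 3 and 2 lower calls with TMM factors, equal medians and quantile normalization. Mki67 was read at 1.63, 2.63 and 1.82 CPM in DMSO and at 4.51, 1.63 and 2.15 CPM in AA, with overlapping groups (0.25, SE 0.32, adjusted p = 0.573). In the same libraries Cdkn1a, the p53 target that stops the cell cycle, rose from 3.26, 0.867 and 0.877 CPM to 192, 276 and 279 CPM (adjusted p = 8.87e-07). Mdm2 rose from 49.6, 55.6 and 66.2 CPM to 209, 233 and 305 CPM.

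Change and gene length went together among the tested genes of the list. The Spearman rank correlation of genomic length with log2 fold change was -0.59 over the 31 genes and -0.28 over 13895 tested genes with a known length. Both are descriptions across genes that share the same 6 libraries and are not independent replicates. The 11 genes under 20 kb had a median log2 fold change of 0.19, with 7 values above 0, against 0.35 over all genes of that length. The 13 genes of 20 to 60 kb had a median of 0.00, against 0.21. The 7 genes over 60 kb were Fancc, Fancl, Brca1, Bard1, Brip1, Blm and Rbbp8, with a median of -0.34 against -0.07, and Rbbp8 at 0.19 was the 1 value above 0. Mus81 at 6.06 kb and Faap24 at 4.68 kb were among the shortest genes of the list.

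**Figure D4:**
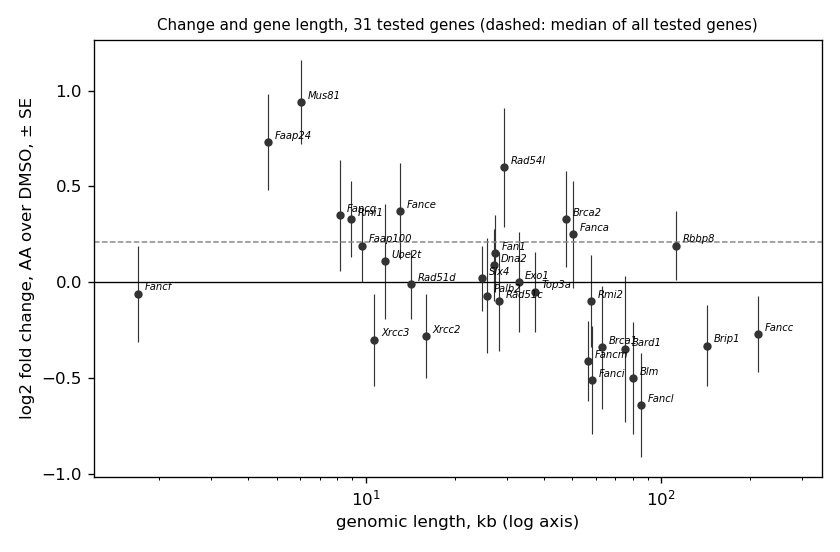
Log2 fold change of AA over DMSO with its SE against genomic length in kb on a log axis, for the 31 tested genes; the dashed line is the median of all tested genes, 0.21. The 11 genes under 20 kb run from -0.30 to 0.94, and 6 of the 7 genes over 60 kb lie below 0.

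The counts above depend on how libraries are put on 1 scale, since the median of all tested genes was 0.21 on the deposited CPM scale and between -0.05 and 0.01 under 3 other scalings. With TMM factors, 1 gene of the list was higher (Mus81) and 2 lower (Fancl and Fancm), where 13.2% of all genes were higher and 14.7% lower. With library medians made equal, Mus81 was higher and 3 genes were lower (Fancl, Fancm and Brip1), against 11.2% and 16.9% of all genes. With quantile normalization, Mus81 was higher and 7 genes were lower (Fancc, Fancl, Fancm, Fanci, Brip1, Xrcc2 and Blm), against 12.7% and 14.5%. Mus81 was called under each of these 3 scalings, at log2 fold changes of 0.74, 0.68 and 0.63. Fancl was called lower under the same 3, at -0.82, -0.90 and -0.99, and Fancm at -0.61, -0.67 and -0.69.

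DMSO replicates 1 and 2 stood apart from DMSO replicate 3 in earlier results of these data, and no label gives a batch. With a term for these library sets, the AA effect rests on DMSO replicate 3. In that fit 0 genes of the list were higher and 1 was lower, Bard1 at -1.3 (limma adjusted p = 0.0464), against 7.39% and 2.96% of all genes. Mus81 was not called, as given above, and Faap24 stood at 0.97 (adjusted p = 0.115).

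**Figure D5:**
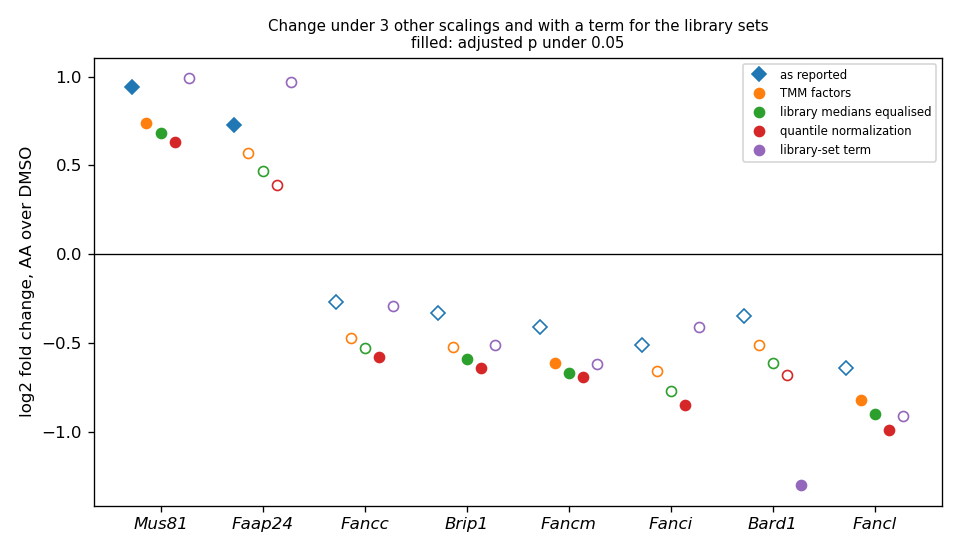
Log2 fold change of AA over DMSO for 8 genes of the list on the deposited scale (diamonds), under 3 other scalings and with the library-set term (circles); filled symbols have an adjusted p under 0.05. Mus81 is filled on 4 of its 5 symbols, Faap24 on the deposited scale alone, and Fancl and Fancm under the 3 other scalings.

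Depth ran from 13304877 to 31136251 reads per library, and the 3 AA libraries held no more than 17815915. Of 12 markers of the proximal tubule 5 fell and 1 rose, with a summed level of 20000 to 25712 CPM in DMSO and 10368 to 13272 CPM in AA. Markers of other cells were present in both groups. Higher in AA were 3 of 12 distal nephron markers (summed 251 to 560 CPM in DMSO, 379 to 1449 CPM in AA), 2 of 8 endothelial markers (213 to 336 and 331 to 373 CPM) and 5 of 9 tested leukocyte markers (214 to 320 and 228 to 305 CPM). Also higher were 3 of 6 tested stromal markers (86.8 to 132 and 167 to 193 CPM) and 1 of 5 podocyte markers (51.3 to 75.7 and 77.8 to 123 CPM). None of these markers of other cells was called lower on the deposited scale. Over all tested genes 22.3% were called higher and 8.66% lower. The counts of distal nephron, endothelial and podocyte markers lay near the higher share, and those of leukocyte and stromal markers above it. With equal medians Csf1r was lower (-0.76, limma adjusted p = 0.0176), and the markers called higher were 2 distal nephron, 1 endothelial, 3 leukocyte, 2 stromal and 1 podocyte. The shares of all tested genes were then 11.2% higher and 16.9% lower. The library-set term, which leaves DMSO replicate 3 as the control, moved these calls both ways. Fewer stromal and leukocyte markers and more distal nephron and endothelial markers were called. Of the markers, Cldn16, Cd3e and Lum were at 0 in 1 DMSO library each. The part of these shifts in the changes of Mus81, Faap24 and the other genes was not tested.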

How the data were processed

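Polyadenylated RNA of S2 and S3 tubule segments was read in 6 libraries, prepared with a stranded mRNA kit per the labels' protocols. Per the submitters' processing notes, bcl2fastq 2.19 and kallisto were used, with build mm10. The sources used here do not give the annotation, the step from transcripts to genes or the strand setting. The authors deposited 1 table of log10 values, found from the values to be log10(CPM + 1). The design had assumed log CPM, so values were turned back to CPM and logged as log2(CPM + 1). Whole reads were recovered for 100% of values within 0.1 read. Intervals and floors cover counting error only.

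A gene entered the test if 3 or more libraries reached 1 CPM (14311 genes). AA was compared with DMSO over all 6 libraries with limma 3.58.1 and a variance trend in R 4.3.3, two-sided. P-values were adjusted by Benjamini-Hochberg over the 14311 genes, with 0.05 as the threshold for a call. A log2 change here compares log2(CPM + 1) values, so low genes appear to change less than they did. The labels do not say whether libraries are separate animals, so p-values measure the spread between libraries, which may be technical.

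The genes and lists were chosen with earlier results of these data known. Values in every library are given for called genes, genes whose groups do not overlap and the 2 highest genes of each role, and from other lists for up to 6 called genes plus Cdkn1a, Mdm2 and Mki67; 1 further gene that this rule takes is not reported here. Coordinates and lengths came from GENCODE M21. Alternatives were 3 scalings, 2 filters, 2 pseudocounts, 2 variance models, voom, a replicate block, a library-set term and leaving out each library.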

Additional observations from a re-analysis of the deposited data

How the results depend on the processing

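With 3 libraries per group, 5 genes of the list (Fancb, Fancd2, Eme1, Rad51b and Rad54b) stayed below the filter; with no filter they were tested and none was called. Of 549 gene and alternative pairs over the genes of the list, 468 kept direction and side of the threshold, 15 lost a call, 14 gained a call and 52 changed sign, mostly at log2 fold changes near 0. The cause of each shift below was not tested, except that a stricter or absent filter changes which genes are tested and that leaving out a library leaves fewer samples.

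The 2 genes called higher became 1 with TMM factors, a 4 CPM filter, equal medians, no filter, a pseudocount of 0.1, quantile normalization, voom or the replicate block, 0 with the library-set term, and 1 to 2 when a library was left out. The 0 genes called lower became 2 with TMM factors, 3 with equal medians, 7 with quantile normalization and 1 with the library-set term. The median of -0.01 became -0.21 with TMM factors, -0.26 with equal medians and -0.33 with quantile normalization, and ran from -0.12 to 0.08 when a library was left out. The labels state no pairing of the replicate numbers. Deviations from the group means correlated at -0.109, -0.156 and -0.015 between same-numbered libraries and at -0.074 to 0.194 between the others. Such correlations cannot show whether same-numbered libraries were handled together. The replicate block kept Mus81 as the 1 gene higher, with 0 lower, and of the other crosslink repair genes it called 3 higher. It called 0 proliferation markers higher.

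Over all tested genes, 4426 calls became 1481 with the library-set term and 2484 to 3969 without a library. The 3187 higher calls became 1885 with TMM factors, 1606 with equal medians, 1822 with quantile normalization, 1058 with the library-set term and 1694 to 2851 without a library. The 1239 lower calls became 2101, 2422, 2077 and 423 in the same order, and 790 to 1118 without a library.

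The 5 other crosslink repair genes called higher became 1 with TMM factors, quantile normalization or no variance trend, 0 with equal medians or the library-set term, 2 with no filter, and 1 to 6 without a library. The 2 called lower became 5 with TMM factors, 7 with equal medians or quantile normalization, 1 with the library-set term or no filter, and 1 to 2 without a library. The E2F group's 1 higher call became 0 under the 3 scalings and the library-set term and 0 to 1 without a library, and its 0 lower calls became 1 with TMM factors, 3 with equal medians, 2 with quantile normalization and 0 to 1 without a library. The 1 proliferation marker called higher became 0 under the 3 scalings, both other pseudocounts, both other filters and voom, 2 with no variance trend, and 0 to 2 without a library.

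Signs of single genes changed as follows. With TMM factors Faap100 stood at -0.02, Ube2t at -0.06, Slx4 at -0.20, Fan1 at -0.05, Rbbp8 at -0.02, Exo1 at -0.14 and Dna2 at -0.12. With equal medians Fanca stood at -0.01, Faap100 at -0.07, Ube2t at -0.15, Slx4 at -0.24, Fan1 at -0.11, Rbbp8 at -0.07, Exo1 at -0.26 and Dna2 at -0.17. With quantile normalization Fanca stood at -0.08, Fancg at -0.00, Faap100 at -0.08, Ube2t at -0.22, Slx4 at -0.13, Fan1 at -0.12, Rbbp8 at -0.07, Exo1 at -0.33 and Dna2 at -0.17. With the library-set term Ube2t stood at -0.04, Slx4 at -0.05, Brca2 at -0.37, Rbbp8 at -0.05, Exo1 at -0.16 and Dna2 at -0.01, and with a pseudocount of 5 Exo1 stood at -0.00.

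When each library was left out in turn, Fanca ran from -0.02 to 0.42, Fancf from -0.22 to 0.11, Ube2t from -0.20 to 0.29, Slx4 from -0.12 to 0.13, Bard1 from -0.65 to 0.13 and Palb2 from -0.34 to 0.11. Rad51c ran from -0.27 to 0.02, Rad51d from -0.11 to 0.07, Rmi2 from -0.31 to 0.06, Top3a from -0.12 to 0.05, Exo1 from -0.14 to 0.08 and Dna2 from -0.04 to 0.18.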
